A study of Arabidopsis thaliana with 16 samples.

Results

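The 10 genes described here act in the replacement of damaged or lost plant stem cells and in wound-induced regrowth. They were chosen by name, as ERF115, its close relatives, its GRAS partners, a wound factor and a peptide gene, and each was found as a locus of its own among 33201 loci. Cells of the Arabidopsis root tip, about 1 mm long and from seedlings 5 days old, were freed of their walls as protoplasts and sorted by the fluorescence of a reporter. C6 cells were positive for pCYCD6:GUS-GFP, which reports the CEI (cortex endodermis initial), a stem cell that gives rise to both ground tissue layers. The w5C6 cells were positive for the same reporter in the wox5 mutant, which lacks a working copy of WOX5, a homeodomain regulator of the quiescent centre (QC). W5S cells were positive for pWOX5:erGFP, which marks the QC, and W5NS cells were the negative cells of that line. All 4 populations passed through wall digestion and sorting. C6 and w5C6 share a reporter but come from separate lines, while W5S and W5NS come from the same line.

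Each population was sampled with 4 libraries, and the deposited table gives 1 value per locus and population that the authors pooled over them. The values were read as FPKM, a level corrected for the length of the transcript and the size of the library. No spread between libraries can be had from them, so the differences below have no replicate check and no test. Depth is unknown. A locus is said here to pass the fold where log2(FPKM + 1) differed by at least 1, that is by 2-fold in FPKM + 1, and only loci of at least 1 FPKM in 1 of the 2 populations were counted. Beside each count of members stands the share of all counted loci that passed in the same direction. The WOX5 transcript was highest in the QC sort W5S, at 206 FPKM, and lowest in the mutant sort w5C6, at 0.0865, with 42.1 in W5NS and 18.4 in C6.

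ERF115 belongs to group X of the ethylene response factors, plant DNA-binding proteins with an AP2 domain. It is kept low in healthy roots, is switched on next to dead cells and drives the divisions that replace them, and it can also trigger division of QC cells. PAT1, SCL21 and SCL5, members of the GRAS family of transcriptional regulators, bind ERF115 and work with it. PSK5 encodes a precursor of phytosulfokine, a sulfated peptide that promotes growth and division, and is a target of ERF115. ERF109 is induced by jasmonate and oxidative signals and activates auxin synthesis genes, RAP2.6L acts in the rejoining of cut tissue, and WIND1 promotes dedifferentiation at wounds.

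Wild-type CEI marker cells held the highest level of most of these genes. C6 was the highest population for 8 of the 10, against 25.3% of the 22875 loci that reached 1 FPKM in any population. The exceptions were PAT1, highest in W5NS, and SCL21, highest in W5S. W5S was the lowest population for 5 members, beside 41.96% of those loci, and w5C6 for 4, beside 14.4%. The 5 ERF members were all highest in C6, and 4 of them were lowest in W5S, ERF109 being lowest in w5C6. No member was listed at 0 in any population. ERF115 met the limit of 1 FPKM through C6 alone, so its highest population could only be C6.

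**Figure D1:**
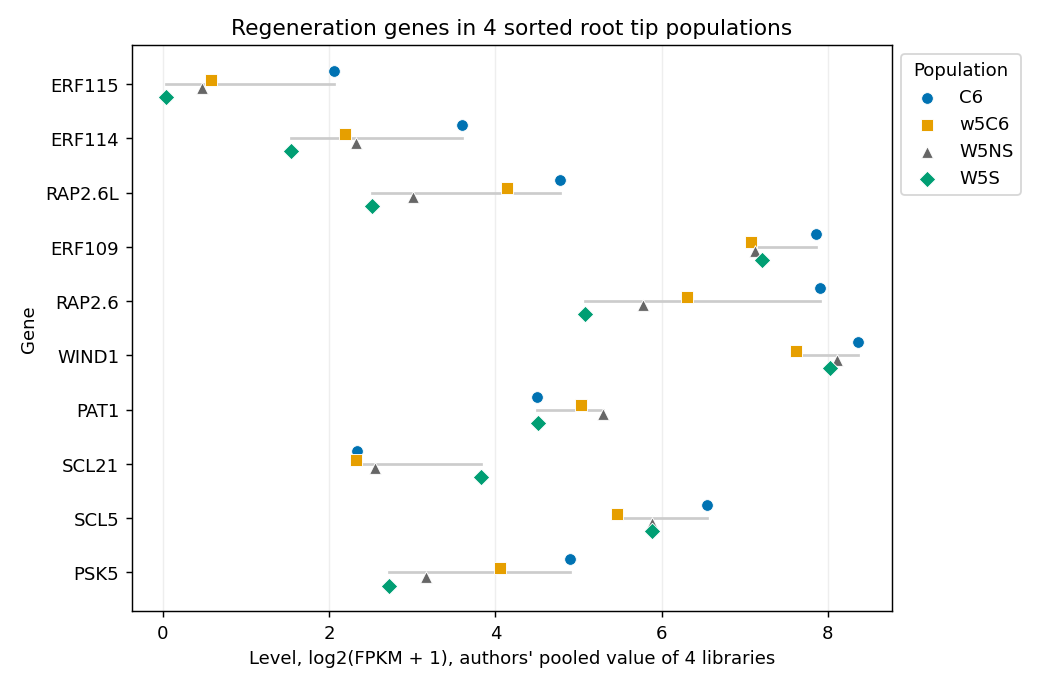
Level of the 10 regeneration genes in C6, w5C6, W5NS and W5S, as log2(FPKM + 1) on the horizontal axis. Each symbol is the authors' pooled value of 4 libraries, the 4 symbols of a gene are set slightly apart in height, and the grey line joins its lowest and highest level. C6 (blue circles) lies farthest right for 8 of the 10 genes.

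ERF115 (AT5G07310) read 3.17 FPKM in C6 and 0.495 in w5C6, with 0.391 in W5NS and 0.0296 in W5S. It was thus at 1 FPKM or more in C6 alone. Its level in C6 lay above that of 52.3% of all loci, and its level in W5S above that of 27.6%. Most of the loci below it in W5S were listed at 0, and W5S had the most such loci. The difference in log2(FPKM + 1) was 1.58 for C6 over W5NS, 1.48 for C6 over w5C6 and 2.02 for C6 over W5S. Among loci whose mean over the populations was within 2-fold of that of ERF115, 11.6%, 4.36% and 29.3% passed the fold in those directions. With a pseudocount of 0.1 in place of 1 FPKM, these 3 differences were 2.73, 2.46 and 4.66. The level of ERF115 was low in every population, and the ratio of the linear values, 8.09 for C6 to W5NS, rests on a value below 1 FPKM.

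ERF114 (AT5G61890), the closest relative of ERF115 in this set, had a similar outline at a higher level. It read 11.1 FPKM in C6 and 3.57 in w5C6, with 4.02 in W5NS and 1.9 in W5S. Its level in C6 was 2.76 times that in W5NS, the next highest. When each profile over the populations was centred on its own mean in log2(FPKM + 1), ERF114 was the 18th nearest of 22603 loci to ERF115, at a Euclidean distance of 0.276. The other members lay farther away, from 0.65 for RAP2.6 to 2.50 for SCL21. The 5 nearest loci were AT5G25840, AT1G03220, AT1G68390, AT1G73920 and AT3G23060, at distances of 0.0668 to 0.183. On this scale AT1G03220 had a similar outline at a far higher level, with 717 FPKM in C6 and 182 in W5S. The pseudocount of 1 FPKM narrows the profile of ERF115, which was below 1 FPKM outside C6. With 0.1 FPKM, C6 over W5S was 4.66 for ERF115 and 2.49 for ERF114. The distances were not recomputed with it. The profiles hold only 4 values, and 184 loci lay within 0.5 of ERF115.

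RAP2.6 (AT1G43160), a stress-responsive member of the same ERF group, showed the widest range of the 10 in log2(FPKM + 1), though not in the ratio of its highest to its lowest FPKM, which was 7.3 against 107 for ERF115. It read 239 FPKM in C6 and 77.8 in w5C6, with 53.9 in W5NS and 32.8 in W5S, and its differences in log2(FPKM + 1) were 2.13 for C6 over W5NS, 1.61 over w5C6 and 2.83 over W5S. Of all counted loci 98.3%, 98.2% and 98.7% lay below these 3 differences. RAP2.6 was already among the more abundant transcripts, with 85.2% of loci below it even in W5S.

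RAP2.6L (AT5G13330) was higher in both CEI marker populations than in W5NS and W5S. It read 26.5 FPKM in C6 and 16.6 in w5C6, with 7.07 in W5NS and 4.71 in W5S. C6 and w5C6 differed by 0.64 in log2(FPKM + 1), short of the fold, while both stood more than 2-fold above W5S and W5NS. For w5C6 this stands beside 16.3% of loci that passed upwards over W5NS and 26.6% over W5S. With the populations scaled to a common median, RAP2.6L in w5C6 over W5NS was just under the fold, at 0.9994. PSK5 (AT5G65870) had a similar order, with 28.7 FPKM in C6 and 15.7 in w5C6, with 7.99 in W5NS and 5.58 in W5S. PSK5 in w5C6 over W5NS, at 0.89, stayed below the fold.

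ERF109 (AT4G34410) and WIND1 (AT1G78080) were abundant everywhere and varied little. ERF109 read 231 FPKM in C6 and 134 in w5C6, with 138 in W5NS and 147 in W5S, with at least 96.3% of loci below it in each population. WIND1 read 327 FPKM in C6 and 196 in w5C6, with 274 in W5NS and 260 in W5S. The highest and lowest levels differed 1.72-fold for ERF109 and 1.67-fold for WIND1, and neither gene passed the fold in any pair. In the TAIR10.1 annotation of RefSeq, ERF109 overlaps 2 other genes, and whether the libraries kept the strand is not stated, so reads could be shared. The overlapping gene in the table, AT4G34412, read 32.2 FPKM in C6 and 10.7 in W5S.

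The 3 GRAS partners differed among themselves, each with its highest level in another population. PAT1 (AT5G48150) read 21.6 FPKM in C6 and 31.6 in w5C6, with 38.2 in W5NS and 21.8 in W5S, and it passed the fold in no pair. SCL21 (AT2G04890) read 4.05, 4.01 and 4.85 FPKM in C6, w5C6 and W5NS against 13.2 in W5S, the one member with its top in the QC sort. SCL5 (AT1G50600) read 92.2 FPKM in C6 and 43.3 in w5C6, with 57.8 in W5NS and 58.1 in W5S, so it was the most abundant of the GRAS members in every population. SCL21 overlaps AT2G04880 and AT2G04900 in the same annotation. Their levels were 6.41 and 80.9 FPKM in W5S and 10.8 and 65 in W5NS. Neither differed by as large a fold between those populations as SCL21, but AT2G04900 rose by more FPKM than SCL21 did. Whether reads were shared was not tested.

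C6 was first compared with W5NS, the cells that lacked the QC reporter. RAP2.6 (2.13), RAP2.6L (1.77), PSK5 (1.73), ERF115 (1.58) and ERF114 (1.27) passed the fold upwards, in differences of log2(FPKM + 1). That is 5 of 10 members, beside 11.9% of the 20787 loci counted, and none passed downwards, beside 6.46%. ERF115 was counted here, and in the other pairs with C6, only through its level in C6, so it could not have passed downwards. The lowest member was PAT1, at -0.79. The median over the members was 1.00 and that over all counted loci 0.11. W5NS cells were not sorted against the CEI reporter, and they come from another line, so line and cell type cannot be told apart here.

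The comparison of C6 with w5C6 bears on the effect of wox5 within 1 reporter. RAP2.6 (1.61), ERF115 (1.48), ERF114 (1.40) and SCL5 (1.08) stood more than 2-fold higher in C6 on the log2(FPKM + 1) scale. These are 4 of 10 members, beside 4.9% of 22322 loci, and none passed in the other direction, which 12.3% of loci did. ERF115 was again counted only through its level in C6. WIND1, ERF109, PSK5 and RAP2.6L were between 0.64 and 0.83 higher in C6, and SCL21 differed by 0.01. PAT1, at -0.53, was the sole member below 0, while the median of all loci was -0.10. According to the study, the reporter extends past the CEI in wox5, and the cells collected may differ between the sorts. C6 and w5C6 also come from separate lines, so other differences between the lines cannot be told apart from wox5. Fewer cells of a type and less RNA per cell cannot be told apart in pooled material.

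The contrast of CEI with QC marker cells was the widest. In C6 over W5S, RAP2.6 (2.83), RAP2.6L (2.27), PSK5 (2.18), ERF114 (2.06) and ERF115 (2.02) passed upwards and SCL21 (-1.49) downwards, in log2(FPKM + 1). The 5 higher members stand beside 19.1% of 20184 loci and the 1 lower member beside 8.64%. In w5C6 over W5S, RAP2.6L (1.62), PSK5 (1.34) and RAP2.6 (1.22) passed upwards and SCL21 (-1.50) downwards. With 9 members counted, these are 3 higher beside 26.6% of 22169 loci and 1 lower beside 7.54%, shares close to the background. ERF115 was counted in C6 over W5S only through its level in C6. It was not counted in w5C6 over W5S, being below 1 FPKM in both.

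Few members differed between the remaining populations. In w5C6 over W5NS only RAP2.6L passed, at 1.12, which is 1 of 9 members counted beside 16.3% of 22285 loci higher and none beside 3.81% lower. The median of the 9 members was -0.13, below the 0.22 of all loci. Scaling the populations to a common median, which shifted this pair by 0.14, brought RAP2.6L just under the fold, at 0.9994. In W5S over W5NS SCL21 alone passed, at 1.28, which is 1 of 9 beside 6.32% of 20229 loci higher and none beside 10.7% lower. ERF115 was below 1 FPKM in both populations of each of these pairs. The comparisons of C6 with W5NS, w5C6 and W5S share the C6 libraries, so they are not separate evidence for a high level there.

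**Figure D2:**
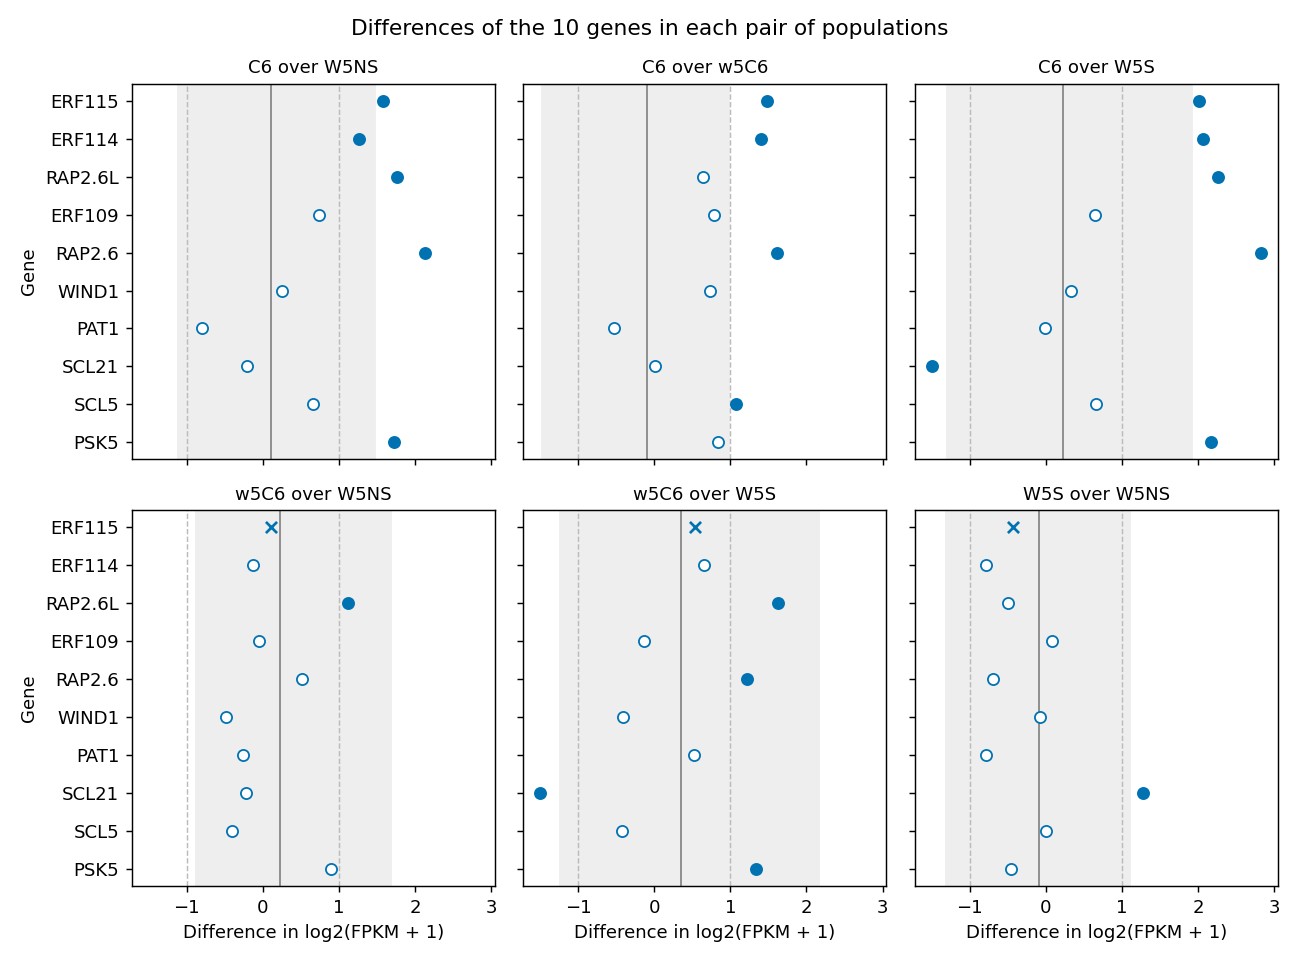
Difference of each gene in log2(FPKM + 1) for the 6 pairs of populations, 1 panel a pair, first-named population minus second. Filled circles passed the 2-fold rule (dashed lines), open circles did not, crosses mark ERF115 where it was below 1 FPKM in both, the grey band holds the central 90% of all counted loci and the solid line is their median. In the 3 panels of C6 most filled circles lie at or beyond the right edge of the band, and in w5C6 over W5NS a single one is filled, inside the band.

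Relatives of the members were read from lists of family and pathway genes. Group X of the ERF family holds 3 further genes. ABR1, a repressor of abscisic acid responses that wounding induces, read 66.9 FPKM in C6 and 9.05 in w5C6, with 10.6 in W5NS and 2.95 in W5S. Its difference in log2(FPKM + 1) was 2.55 for C6 over W5NS, 2.76 over w5C6 and 4.10 over W5S, larger on this scale than that of any of the 10 members in each pair. The ratio of FPKM in C6 to that in W5S was 22.7 for ABR1, below the 107 of ERF115. ERF112 read 59.2 and 61.0 FPKM in C6 and w5C6 against 28.4 in W5NS and 33.6 in W5S, and C6 and w5C6 differed by -0.04. Both passed the fold over W5NS, at 1.03 and 1.08. ERF110 was listed at 0 in all 4 populations. Of the 8 genes of the group, members included, 6 were highest in C6, beside 25.3% of loci. The ERF members already counted above make up 5 of these 6, and ERF110 has no highest population.

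The WIND and GRAS relatives had other orders. WIND2, which like WIND1 promotes callus, was highest in W5S, with 952 FPKM there against 443 in W5NS, 307 in C6 and 285 in w5C6. WIND3 was also highest in W5S, at 226 FPKM against 98.9 in W5NS, 134 in C6 and 74.9 in w5C6. Both passed the fold in W5S over W5NS, at 1.10 and 1.18. WIND4 stayed below 2 FPKM and was listed at 0 in W5S. Among the relatives of PAT1, SCL8 read 47.2 FPKM in C6 and 27.5 in w5C6, with 22.7 in W5NS and 22.7 in W5S, and it passed over W5NS (1.02) and W5S (1.03). SCL1 and SCL13 passed in no pair.

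Phytosulfokine is made from 6 precursor genes, is sulfated by TPST and is perceived by the receptor kinases PSKR1 and PSKR2. Of the 6 precursors, 3 had their highest level in C6, namely PSK4, PSK5 and PSK6, beside 25.3% of loci. PSK5 is a member and was already counted above. PSK4 was the most abundant of them there, at 153 FPKM in C6 and 68.2 in w5C6, with 51.9 in W5NS and 37.5 in W5S, and it passed the fold over each of the other populations. PSK6 read 7.09 FPKM in C6 and 3.09 in w5C6, with 3.06 in W5NS and 1.04 in W5S. PSK1, PSK2 and PSK3 did not pass in any pair. PSKR1 had its highest level in C6 as well, at 29.3 FPKM against 15.1 in W5NS, a difference of 0.91 that did not pass. TPST and PSKR2 were instead highest in W5NS and lowest in C6. In C6 over W5NS, 1 of the 8 pathway genes other than PSK5 passed upwards (PSK4), beside 11.9% of loci. TPST (-1.84) and PSKR2 (-1.44) passed downwards, beside 6.46%. TPST read 12.5 FPKM in C6 and 16.6 in w5C6 against 47.5 in W5NS and 35.6 in W5S, and PSKR2 4.22 and 4.77 against 13.2 and 6.75.

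**Figure D3:**
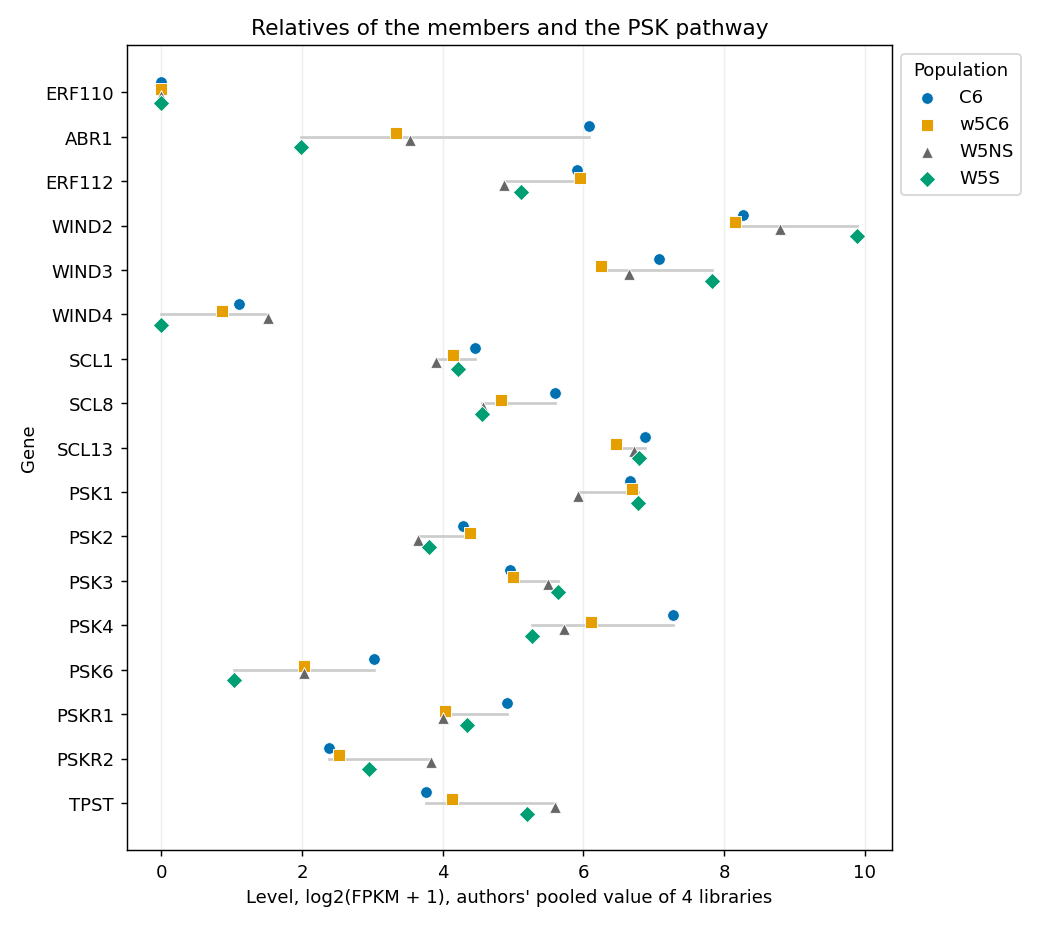
Level of 17 relatives and pathway genes in the 4 populations, as log2(FPKM + 1) on the horizontal axis. Symbols and lines are as for the members, with the 4 symbols of a gene set slightly apart in height. ABR1 and PSK4 have C6 farthest right, TPST and PSKR2 have W5NS farthest right, and WIND2 and WIND3 have W5S farthest right.

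Of the 16 listed partners and targets of these regulators, 13 were counted in C6 over W5NS. There, 1 passed the fold upwards (SCR), beside 11.9% of loci, and 1 downwards (MP), beside 6.46%. In C6 over w5C6 none of 14 passed, beside 4.9% of loci higher and 12.3% lower. The median differences of the list were 0.02 and 0.01. ERF115 protein is degraded through CCS52A2, an activator of the anaphase-promoting complex, whose transcript read 10.5 FPKM in C6 and 10.9 in w5C6, with 10.3 in W5NS and 14.5 in W5S. RBR, the retinoblastoma homologue that restrains stem cell division, read between 23.8 and 34.3 FPKM. ASA1, an auxin synthesis gene that ERF109 activates, read 20.7 FPKM in C6 and 11.9 in w5C6, and YUC2, another, was below 1 FPKM throughout. MP, an auxin response factor that acts downstream of ERF115 in regenerating roots, was lower in the CEI sorts, at 38.1 FPKM in C6 and 28.8 in w5C6 against 117 in W5NS and 180 in W5S. SCR, a GRAS regulator of the ground tissue and the QC, read 48.9 and 47.6 FPKM in C6 and w5C6 against 17.4 in W5NS and 30.9 in W5S, while its partner SHR stayed between 2.86 and 6.36 FPKM. BES1, a brassinosteroid signalling factor, was highest in W5S, at 110 FPKM against 52.6 in W5NS. CYCD6;1, the cyclin gene behind the CEI reporter, had 9.75 FPKM in C6 and 7.01 in w5C6, with 7.02 in W5NS and 0.828 in W5S.

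Several members respond to wounding, and every population went through wall digestion, so general wound and jasmonate genes were set beside them. Of 19 such genes, 11 had their highest level in C6, beside 25.3% of loci, and their summed level was 2745 FPKM in C6 and 2004 in w5C6, with 1720 in W5NS and 1707 in W5S. None was listed at 0. Total FPKM also differed, from 957091 for C6 and 907405 for w5C6 down to 794518 for W5S and 726062 for W5NS. Summed levels, of these genes and of the markers below, were not scaled to the totals. Their order therefore need not be that of shares of the total. For the wound genes W5NS stood above w5C6 as a share of the total, the reverse of their summed levels. In C6 over W5NS, JAZ8 (2.59), ERF6 (1.45) and ZAT10 (1.01) passed the fold, 3 of 19 beside 11.9% of loci, and the median was 0.60, between the 1.00 of the members and the 0.11 of all loci. In C6 over w5C6, ERF6 (1.21) and JAZ8 (1.03) passed, 2 of 19 beside 4.9% of loci, and the median was 0.48. JAZ8, a repressor of jasmonate signalling, read 37.5 FPKM in C6 and 17.8 in w5C6, with 5.41 in W5NS and 6.86 in W5S. In w5C6 over W5NS the wound genes JAZ8 (1.55), ERF5 (1.14) and TCH4 (1.12) passed upwards, 3 of 19 beside 16.3% of loci. JAZ5 (-1.18) passed downwards, beside 3.81%. In C6 over W5S, JAZ8 (2.29), JAZ10 (1.26), ERF5 (1.16), ERF6 (1.07) and ZAT12 (1.02) passed upwards, 5 of 19 beside 19.1% of loci. In w5C6 over W5S, ERF5 (1.71), JAZ8 (1.26) and LOX3 (1.08) passed upwards, 3 of 19 beside 26.6%, and JAZ5 (-1.45) downwards, beside 7.54%. The part of the wound response in the levels of the members was not tested.

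Endodermis markers were high in C6 too. The summed level of SCR, MYB36, CASP1, CASP2 and ESB1 was 704 FPKM in C6 and 86.0 in w5C6, with 160 in W5NS and 139 in W5S. All 5 passed the fold in C6 over W5NS, beside 11.9% of loci. In w5C6 over W5NS they split. SCR (1.40) and MYB36 (1.13) passed upwards, beside 16.3% of loci, and CASP1, CASP2 and ESB1 downwards, beside 3.81%. In C6 over w5C6, CASP1, CASP2 and ESB1 passed, beside 4.9% of loci. Their differences were 4.77, 4.68 and 3.94 in log2(FPKM + 1), while SCR differed by 0.04. Of the other markers, the root cap factors BRN1 and BRN2 read 99.7 and 73.7 FPKM in C6, 146 and 126 in W5S and 33.3 and 32.4 in W5NS. SMB and PIN3, also listed for the root cap, were highest in W5NS, at 72.2 and 133 FPKM against 26.7 and 16.6 in C6. The summed level was 101 FPKM in C6 and 148 in w5C6 for the 3 epidermis markers, of which WER was highest in W5NS and COBL9 in w5C6. The 4 vasculature markers summed to 73.3 FPKM in W5NS against 49.4 in w5C6 and 43.2 in C6. Single vasculature markers went both ways in w5C6, where ATHB8 was lowest, at 1.61 FPKM, and APL highest, at 7.33. The cortex marker CO2 read 7.44 FPKM in C6 and 7.79 in w5C6. AGL42 of the QC list was highest in w5C6, at 21.7 FPKM, with 20.4 in W5S, 14.9 in C6 and 10.2 in W5NS. It passed the fold upwards in w5C6 over W5NS, at 1.02, beside 16.3% of loci. None of the endodermis or root cap markers was listed at 0 in any population. The part of the cell types collected in the levels of the regeneration genes was not tested.

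**Figure D4:**
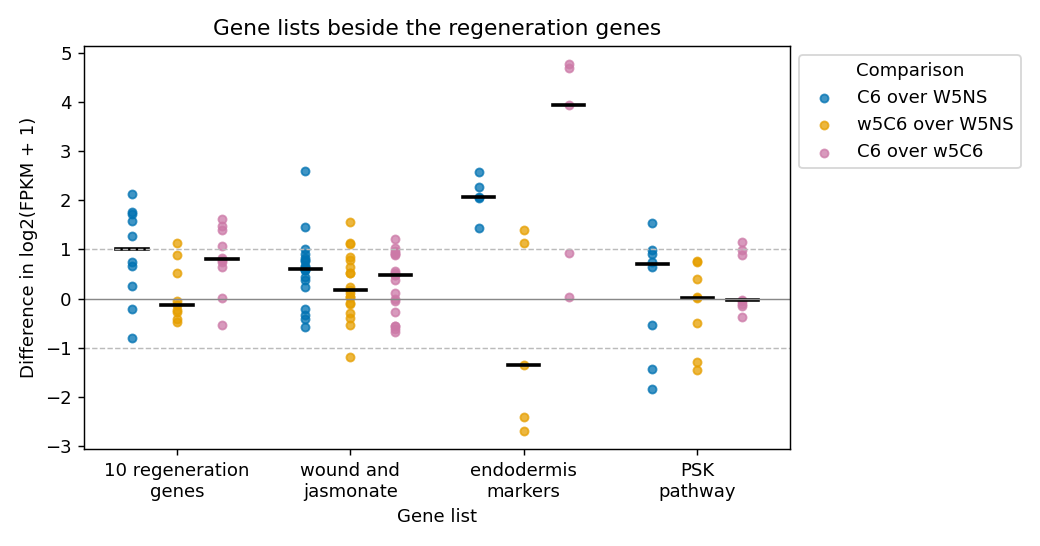
Difference in log2(FPKM + 1) of every counted gene of 4 lists in 3 comparisons, with black bars at the list medians and dashed lines at the 2-fold rule. The regeneration genes have medians of 1.00 in C6 over W5NS, -0.13 in w5C6 over W5NS and 0.81 in C6 over w5C6. The endodermis markers have medians of 2.07, -1.36 and 3.94, and in w5C6 over W5NS 2 of the 5 lie above the upper dashed line and 3 below the lower one.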

How the data were processed

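Sorted root tip cells gave 16 libraries, 4 for each population, made with a low-input SMART-Seq kit and sequenced as single reads of 100 bp. The authors trimmed reads with fastq-mcf and ran HISAT2 and Cufflinks within TuxNet, and both tools also stand in the submitters' processing notes. The sources used here name no versions, build or annotation, so neither coordinates nor sequences are printed and the planned promoter motif search was not run. The authors deposited 1 FPKM value per locus and population, pooled over libraries; the header names no unit, and FPKM was inferred from the pipeline. A further 12 columns hold the authors' own log2 folds and q-values and were not used.

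Differences were taken in log2(FPKM + 1), which shrinks those of weakly expressed genes, over loci of at least 1 FPKM in 1 of the 2 populations. With 1 pooled value per population no test was possible. All 10 members are named. Of each other list, up to 4 genes per pair that passed the fold and reached 10 FPKM in the higher population were to be named, largest difference first, with the PSK receptors, TPST, CCS52A2, RBR, SCR, WOX5 and CYCD6;1. The 5 loci nearest to ERF115 were taken among single-gene loci of at least 1 FPKM in any population. ERF110, WIND4, SCL1, SCL13, PSK1, PSK2, PSK3, PSK6, ASA1, YUC2, SHR, CO2, APL and ZAT12 were added after their values were seen, as were the shares among loci of like mean level. Members and lists were chosen with earlier results of these data known. All 80 listed gene IDs were in the table and in the RefSeq annotation of TAIR10.1. Alternatives were a pseudocount of 0.1, scaling to a common median, no filter and a 4-fold rule. Python 3.11.15, pandas 2.3.3, NumPy 2.4.6 and matplotlib 3.10.9 were used.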

Additional observations from a re-analysis of the deposited data

How the results depend on the processing

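Most counts of members past the fold were within 1.5 times of those reported. With a pseudocount of 0.1 FPKM or populations scaled to a common median 11 of 12 were. Without a filter on low values all 12 counts were the same by construction. A locus below 1 FPKM in both populations cannot differ by 1 in log2(FPKM + 1), so this setting could not change a count. With the smaller pseudocount 1 member, ERF114, passed downwards in W5S over W5NS, at -1.04. With scaling none passed upwards in w5C6 over W5NS, where the count went to 0 because RAP2.6L stood at 0.9994. Scaling moved the median difference by 0.14 for C6 over W5NS and by 0.16 for C6 over W5S, and C6 was then the highest population for 8 of 10 members, beside 21.5% of loci. Under a rule of 4-fold, the count went to 1 upwards in C6 over W5NS, and to 0 upwards in C6 over w5C6, w5C6 over W5NS, w5C6 over W5S and W5S over W5NS and downwards in C6 over W5S and w5C6 over W5S. This follows from the stricter rule, which also admits fewer of all loci. Of 57 single differences under each of the 2 scale changes, 56 kept their sign and their side of the fold. The size of the ERF115 differences did depend on the pseudocount, which at 0.1 moved C6 over W5NS from 1.58 to 2.73, C6 over w5C6 from 1.48 to 2.46 and C6 over W5S from 2.02 to 4.66, so that ERF115 and not RAP2.6 (2.86) had the widest difference from W5S. No library could be left out, since the values are pooled. No paired analysis was possible because the table carries no value per replicate. Low levels, such as those of ERF115 and SCL21, rest on an unknown number of reads.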
